A study of Homo sapiens with 14 samples.

Results

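Metallothioneins and 2 genes of zinc handling were followed through 2 cancer cell lines in normoxia and hypoxia. The genes are the metallothioneins MT2A, MT1A, MT1E, MT1F, MT1G, MT1M and MT1X, the zinc-sensing transcription factor MTF1 and the zinc exporter SLC30A1. They were chosen by gene symbol and are 9 of the 23106 genes counted in each library. PC3, an established line from a human prostate carcinoma, gave 4 libraries in normoxia (21% O2) and 4 in hypoxia (0.5% O2). HCT116, an established line from a human colorectal carcinoma, gave 3 in each. The study's methods name a different culture medium for each line, and library depth also differed. Line, medium and depth therefore cannot be told apart. Exposure lasted 16 h, no transgene, knock-out or drug is named for any of the 14 libraries, and each line is 1 model of its tissue. Polyadenylated RNA was sequenced, and total counts ran from 71228454 to 150630928 per library. The epithelial genes EPCAM, KRT8, KRT18 and CDH1 were all above 1 CPM (read counts scaled to the library size, with TMM factors) in both lines. The labelled tissues were only partly visible in their markers. PC3 held HOXB13 at a mean of 77.8 CPM and TMPRSS2, but KLK2 and KLK3 were each below 0.1 CPM. HCT116 held CDX2 at 18.7 CPM, with CDX1, VIL1, CDH17 and LGALS4 each below 0.1 CPM. Of 7 markers of stromal, endothelial and blood cells, the most abundant was COL1A1, at a mean of 7.73 CPM in PC3 and 9.95 CPM in HCT116.

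Metallothioneins are small, cysteine-rich proteins that bind zinc and copper and buffer the free metal of the cell. MTF1 senses free zinc, enters the nucleus and binds short metal response elements in the promoters of metallothionein genes and of SLC30A1, whose protein moves zinc out across the plasma membrane. Because a rise in free zinc raises the transcription of both the buffer and the exporter, their RNA is widely read as a report of the cell's zinc state, and metallothionein genes are also known to respond to stress and low oxygen.

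All 7 metallothionein members lie in 1 cluster on chromosome 16, between positions 56642496 and 56718108 of GRCh37, a span of 75.6 kb. Every member but MT1G is on the plus strand. MT2A (chr16:56642496-56643409) is followed by MT1E (chr16:56659387-56661024), MT1M (chr16:56666571-56667893), MT1A (chr16:56672578-56673999), MT1F (chr16:56691643-56694610), MT1G (chr16:56700642-56701977) and MT1X (chr16:56716382-56718108). MTF1 (chr1:38275246-38325264) and SLC30A1 (chr1:211744910-211752503) lie far apart on the minus strand of chromosome 1. All 9 are annotated as protein-coding.

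RefSeq promoter sequences (GRCh38.p14) were matched for MT2A, MT1X, MTF1 and SLC30A1, 4 of the 9 genes, and not for MT1A, MT1E, MT1F, MT1G and MT1M. The 250 bases before the annotated start are shown for both matched metallothioneins and for the exporter, and those of MTF1 are left out. Capitals mark the core of the metal response element, TGCACNC or TGCGCNC, on either strand.
MT2A, plus strand, chr16:56608334-56608583: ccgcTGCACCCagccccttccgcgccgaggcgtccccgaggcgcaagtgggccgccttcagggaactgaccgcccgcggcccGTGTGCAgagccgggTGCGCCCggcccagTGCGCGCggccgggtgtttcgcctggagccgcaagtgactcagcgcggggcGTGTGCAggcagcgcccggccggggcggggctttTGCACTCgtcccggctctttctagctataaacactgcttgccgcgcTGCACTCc
MT1X, plus strand, chr16:56682220-56682469: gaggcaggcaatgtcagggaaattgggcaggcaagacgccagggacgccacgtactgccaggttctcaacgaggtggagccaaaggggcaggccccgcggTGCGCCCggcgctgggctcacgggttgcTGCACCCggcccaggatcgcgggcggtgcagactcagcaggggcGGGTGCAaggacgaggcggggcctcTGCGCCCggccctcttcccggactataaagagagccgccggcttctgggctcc
SLC30A1, minus strand, chr1:211579162-211579411: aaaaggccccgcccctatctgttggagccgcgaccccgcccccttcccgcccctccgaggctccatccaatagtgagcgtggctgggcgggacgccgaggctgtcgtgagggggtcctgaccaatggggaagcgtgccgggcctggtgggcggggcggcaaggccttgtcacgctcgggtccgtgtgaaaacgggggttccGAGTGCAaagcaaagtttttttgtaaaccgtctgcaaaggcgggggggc
MT2A held 7 such cores, MT1X 4, SLC30A1 1 and MTF1 0. Of 35116 promoters of this length, 24.8% held at least 1 core, 1.58% at least 3 and 0.12% at least 5. The core of the HIF binding sequence, ACGTG or GCGTG on either strand, was matched 1 time in MT2A, 1 time in MT1X, 2 times in MTF1 and 3 times in SLC30A1, against 43.2% of all promoters with at least 1 and 7.76% with at least 3. In MT2A it shared bases with a metal response core at 1 place. These are matches of letters, and binding was not measured here.

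The metallothionein genes are near copies of one another, which bears on how their reads are counted. Among the 10 of 21 pairs of members with coding sequences of the same length, 14 to 21 bases differed, an identity of 88.5% to 92.3%. Reads were paired, 75 or 100 bases long. Of the 75-base windows along the transcript, 11.9% of MT1E, 8.18% of MT1X, 6.55% of MT1G and 1.23% of MT1M had an exact copy elsewhere in the genome or its transcripts, and MT2A, MT1A and MT1F had none. At 100 bases only MT1E kept such windows, 4.33% of them. When up to 2 mismatches to another locus of the cluster were allowed, the 75-base shares were 29.3% for MT1E, 21.7% for MT2A, 19.9% for MT1G, 17.9% for MT1X, 17.3% for MT1M, 9.01% for MT1A and 1.42% for MT1F. Counts of MT1E, MT2A, MT1G, MT1X and MT1M are therefore less certain than those of MT1F. The MT1E shares rest on an annotated transcript of 746 bases, and the one the authors counted on may differ. Its annotated coding length also kept MT1E out of the pairs of the same length. Whether strand was used in the counting is not given in the sources used here, so reads of a gene and of any antisense transcript could not be separated.

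In PC3 nearly all metallothionein RNA was MT2A, whereas in HCT116 it was split between MT2A and MT1E. MT1E was counted at 0 in each of the 8 PC3 libraries, among 784960363 counts in all, which allows a level of up to 0.00382 CPM. In HCT116 it had 31585, 24791 and 24123 counts in normoxia and 35572, 34701 and 28387 in hypoxia. No other member was as divided between the lines. In bulk RNA of this kind, expression in fewer cells and less RNA per cell cannot be told apart. The normoxic MT1E level was at least 28000-fold higher in HCT116 than in PC3, taking 3 counts over the PC3 group as the limit, and the hypoxic level at least 25000-fold higher. The part of shared reads in the MT1E counts was not tested.

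MT2A made up 94.9% ± 0.74 (SD, n = 4) of the metallothionein counts of normoxic PC3 and 52.0% ± 2.87 (SD, n = 3) of those of normoxic HCT116, where MT1E made up 42.0% ± 2.82. MT1X took 3.91% ± 0.57 in PC3 and 5.52% ± 0.19 in HCT116. The summed level of the cluster was 174 ± 46.6 CPM in normoxic PC3 and 451 ± 48.8 CPM in normoxic HCT116, and the libraries of the lines did not overlap. The stacked bars of metallothionein counts by library show this split.

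**Figure D1:**
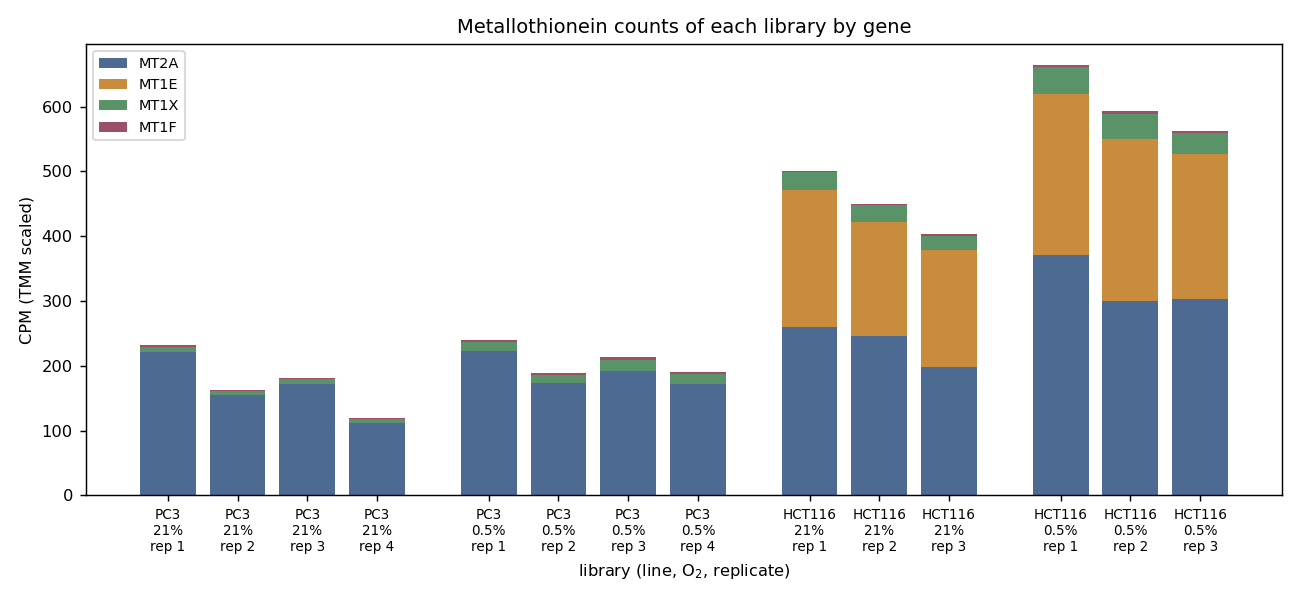
Metallothionein level of each of the 14 libraries in CPM (vertical axis), stacked by gene, with line, O2 and replicate on the horizontal axis. The orange MT1E layer is present in all 6 HCT116 libraries and absent in all 8 PC3 libraries, where MT2A fills almost the whole bar.

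Per kilobase of annotated transcript, which allows genes to be compared, MT2A stood first in both lines. In normoxic HCT116 the level fell from MT2A at 586 ± 81.8 CPM per kb through MT1E at 254 ± 26.3 and MT1X at 61.5 ± 4.59 to MTF1 at 4.90 ± 0.21, MT1F at 4.18 ± 0.24 and SLC30A1 at 2.45 ± 0.03 (SD, n = 3). No neighbours in this order lay within 1 SD of each other, but the order of MTF1 and MT1F turned round when 200 bases were subtracted from each transcript length, with MT1F at 7.90 and MTF1 at 5.03 CPM per kb. In normoxic PC3 MT2A, at 411 ± 113 CPM per kb, was followed by MT1X at 16.3 ± 2.06 (SD, n = 4). MT1F at 4.35 ± 0.75, MTF1 at 4.22 ± 0.15 and SLC30A1 at 4.06 ± 0.38 CPM per kb were not separated beyond their spread. With 200 bases subtracted, MT1F was at 8.22 CPM per kb, above MTF1 at 4.33 and SLC30A1 at 4.21. Transcripts of the metallothioneins are only 396 to 746 bases long, so these levels depend on the length used. The 746 bases are those of MT1E, whose annotated transcript has 2 exons and 381 coding bases. Those of the other metallothionein members have 3 exons, 183 or 186 coding bases and at most 425 bases in all. With a shorter MT1E transcript its level per kb would be higher, and the one the authors counted on may differ.

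The rest of the cluster had few counts or none. MT1A had 0 counts in all 14 libraries, among 1640327997 counts in all, which allows up to 0.00183 CPM. A 0 in these files need not mean absent RNA, since SLC39A7, a zinc transporter used by most cells, was also listed at 0 in all 14 libraries. MT1G had 33 counts in the 14 libraries together and at most 8 in 1 library. MT1M had 22, 22, 8 and 16 counts in normoxic PC3 and 16, 12, 27 and 14 in hypoxic PC3, and in HCT116 only 2 counts, both in hypoxia replicate 2. Its normoxic level was at least 21-fold higher in PC3 than in HCT116, the opposite of MT1E. Of 9 further metallothionein loci counted, MT1H, MT4 and MT1P2 had no count, and only MT1DP and MT1B reached 10 counts in a library. The pseudogene MT1DP had 42, 28 and 37 counts in normoxic HCT116 and 40, 47 and 35 in hypoxic HCT116. In PC3 it had 0 counts in normoxia and 1, 1, 5 and 0 in hypoxia. MT1B had 0, 0 and 1 counts in normoxic HCT116, 1, 13 and 3 in hypoxic HCT116 and none in PC3. MTL5, a gene on chromosome 11 that was once named for a likeness to metallothioneins, stood at 11.7 ± 0.74 CPM in normoxic PC3 and 7.18 ± 0.76 CPM in normoxic HCT116.

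**Figure D2:**
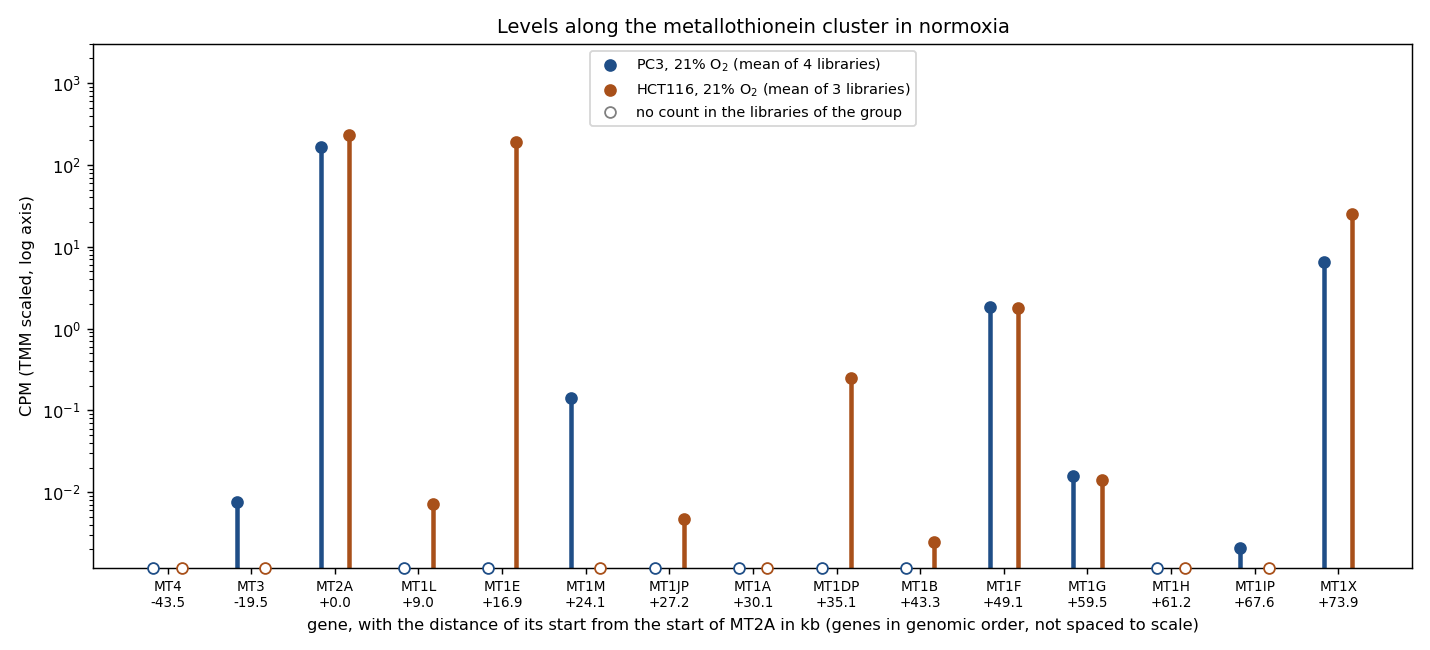
Mean normoxic level in CPM on a log axis (vertical) of each counted metallothionein locus of chromosome 16, in genomic order with the distance from MT2A in kb under each name, in PC3 (blue, 4 libraries) and HCT116 (orange, 3 libraries). Open points stand for no count. MT2A, MT1X and MT1F stood above 1 CPM in both lines and MT1E in HCT116 alone, with no MT1E count in PC3. The other loci were below 1 CPM or without counts.

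The 2 lines were next compared gene by gene in normoxia, in 1 edgeR quasi-likelihood fit over the 14 libraries. The Benjamini-Hochberg adjusted p was read against a threshold of 0.05. The lines differed in most genes, with 38.9% of 15493 tested genes higher in HCT116 and 42.4% lower (81.3% in all). Of the 5 tested members with counts in every group, 4 were called, which is close to this background. MT1X was at 7.49, 6.58, 6.82 and 5.48 CPM in normoxic PC3 and at 26.6, 25.1 and 22.9 CPM in normoxic HCT116, with no overlap. Its log2 fold change was 1.91 (SE 0.12, edgeR adjusted p = 9.72e-10). SLC30A1 ran the other way, at 25.1, 23.95, 25.9 and 20.8 CPM in PC3 and 14.5, 14.3 and 14.6 CPM in HCT116, again without overlap. The change was -0.73 on the log2 scale (SE 0.09, edgeR adjusted p = 2.46e-06). The line with more metallothionein RNA thus had less RNA of the exporter. As the lines were grown in different media, line and medium cannot be told apart in these differences.

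MT2A was at 222, 154, 172 and 112 CPM in normoxic PC3 and at 260, 247 and 198 CPM in normoxic HCT116, and the ranges overlapped. The log2 fold change was 0.51 (SE 0.18, edgeR adjusted p = 0.0147), and without HCT116 normoxia replicate 1 the adjusted p was 0.0633. MTF1 was 0.22 higher in HCT116 on the log2 scale (SE 0.09, edgeR adjusted p = 0.0439), with 34.6, 34.3, 33.2 and 32.0 CPM in PC3 and 40.5, 39.1 and 37.2 CPM in HCT116. That call was lost under total count scaling (adjusted p = 0.247), with at least 10 counts required in every library (adjusted p = 0.0702) and in 6 of the 14 fits that left out 1 library, with adjusted p up to 0.128 without HCT116 normoxia replicate 1. The other libraries whose omission ended it were HCT116 normoxia replicate 2 (0.0880), PC3 normoxia replicates 2 (0.0608), 3 (0.0785) and 4 (0.0980) and PC3 hypoxia replicate 2 (0.0548). MT1F did not differ past the threshold (log2 fold change -0.06, 95% interval -0.45 to 0.33, edgeR adjusted p = 0.776). MT1E and MT1M passed the filter on low counts only through the line where they were counted, so no p is given for them. With a group at 0 their fold is given only as the limits above.

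**Figure D3:**
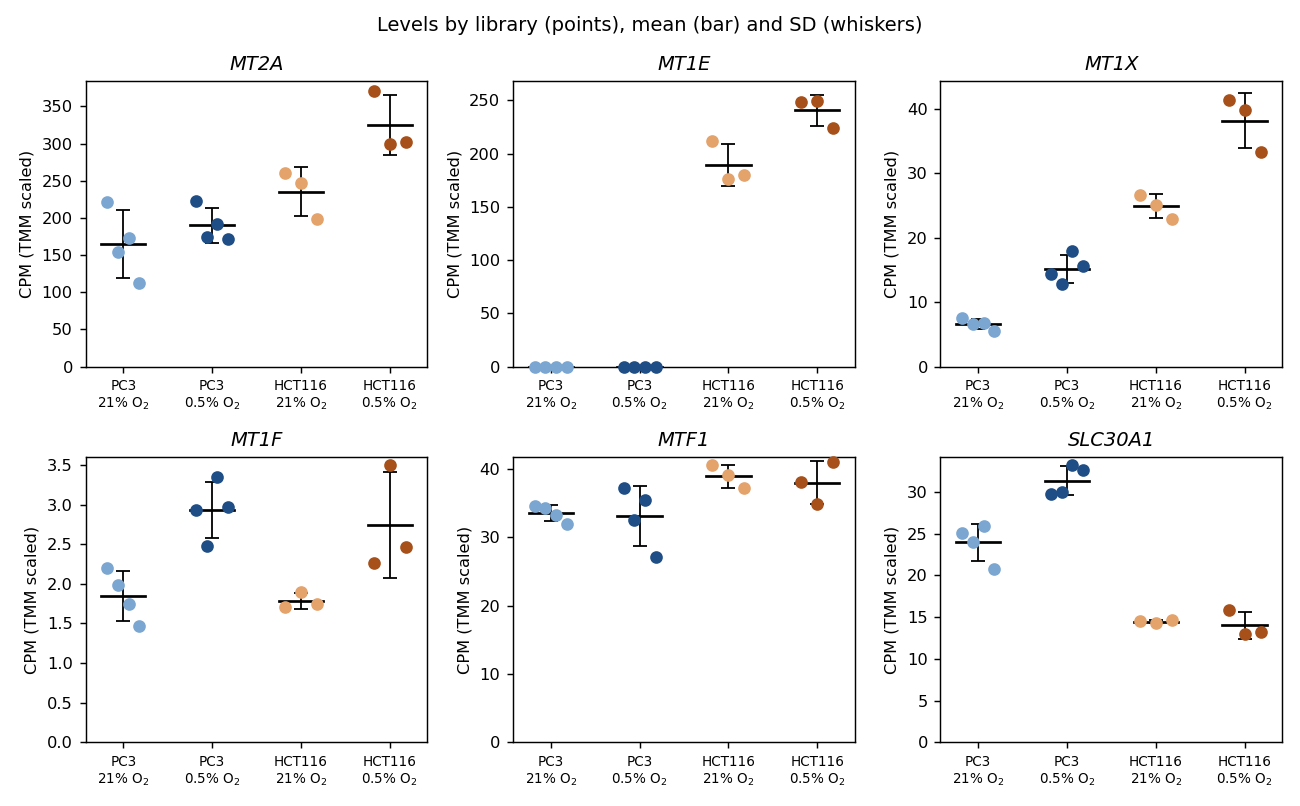
CPM (vertical axes, each from 0) of 6 genes in every library, by line and O2. Points are libraries, bars are means and whiskers are SDs of 4 (PC3) or 3 (HCT116) libraries. MT1E lies at 0 in all PC3 libraries, MT1X is higher in hypoxia without overlap in both lines, and the SLC30A1 points separate by O2 in PC3 only.

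In PC3, hypoxia raised MT1X, MT1F and SLC30A1, while MT2A and MTF1 did not pass the test. MT1X rose from 7.49, 6.58, 6.82 and 5.48 CPM in normoxia to 14.4, 12.8, 17.9 and 15.6 CPM in hypoxia. Every hypoxic library was above every normoxic one. The log2 fold change was 1.21 (SE 0.13, edgeR adjusted p = 0.00093), a fold of 2.31, and it passed the threshold in all 16 alternative analyses at this threshold. MT1X was the only tested member with a change of more than 1 on the log2 scale in either line.

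SLC30A1, the exporter, rose from 25.1, 23.95, 25.9 and 20.8 CPM to 29.7, 30.0, 33.2 and 32.6 CPM in PC3, with no overlap. The log2 fold change was 0.39 (SE 0.09, edgeR adjusted p = 0.0192). It was lost only without PC3 normoxia replicate 2 (log2 fold change 0.39, adjusted p = 0.0672). MT1F rose from 2.21, 1.99, 1.75 and 1.47 CPM to 2.93, 2.48, 3.35 and 2.96 CPM, also without overlap. Its log2 fold change was 0.67 (SE 0.17, edgeR adjusted p = 0.0331). The MT1F call was lost in 6 of the 8 fits that left out 1 library. Those were the fits without normoxia replicates 2, 3 and 4 (adjusted p = 0.0819, 0.107 and 0.0772) and without hypoxia replicates 1, 2 and 3 (adjusted p = 0.0552, 0.0501 and 0.0751).

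MT2A, the most abundant metallothionein, was at 222, 154, 172 and 112 CPM in normoxic PC3 and 223, 174, 192 and 172 CPM in hypoxic PC3, and the ranges overlapped widely. This gave a log2 fold change of 0.21 (95% interval -0.22 to 0.64, edgeR adjusted p = 0.524), which ran from 0.06 without normoxia replicate 4 to 0.39 without normoxia replicate 1 and was also lower, at 0.11, without hypoxia replicate 1. MTF1 was at 34.6, 34.3, 33.2 and 32.0 CPM in normoxia and 37.2, 32.5, 35.4 and 27.2 CPM in hypoxia, with overlap. The log2 fold change of MTF1 was -0.01 (95% interval -0.24 to 0.21, edgeR adjusted p = 0.954). MT1M, on its few counts, had a log2 fold change of 0.53 (95% interval -0.24 to 1.31, edgeR adjusted p = 0.348).

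Thus 3 of the 6 members tested in PC3 were higher and 0 lower, where 6.03% of all 14309 tested genes were higher and 5.29% lower. MT1A, MT1E and MT1G did not pass the filter on low counts. The median log2 fold change of the 6 was 0.46, beside 0.00 over all genes tested. Under total count scaling the split of all genes was 562 higher and 1733 lower in place of 863 and 757, and under upper-quartile scaling 681 and 1048, with the same 3 members higher. The replicate numbers pair the PC3 libraries. With the replicate block, 14.9% of genes were higher and 13.6% lower, MT1X, SLC30A1 and MT1F were again the members called, and MT2A had an adjusted p of 0.107.

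Read pair by pair, the PC3 responses were uneven between members. The ratio of hypoxic to normoxic CPM in replicates 1 to 4 was 1.92, 1.94, 2.62 and 2.85 for MT1X and 1.01, 1.13, 1.11 and 1.54 for MT2A. For SLC30A1 it was 1.18, 1.25, 1.28 and 1.57. MT1X thus exceeded MT2A in each pair, and replicate 4 gave the highest ratio of all 3 genes. Within a library the ratio of the 2 metallothioneins does not depend on scaling. MT1X stood at 33.8, 42.7, 39.5 and 49.0 counts per 1000 MT2A counts in normoxic PC3 and at 64.5, 73.7, 93.2 and 90.6 in hypoxic PC3, with no overlap. In HCT116 it stood at 102, 102 and 116 in normoxia and 111, 133 and 110 in hypoxia, and these overlapped.

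**Figure D4:**
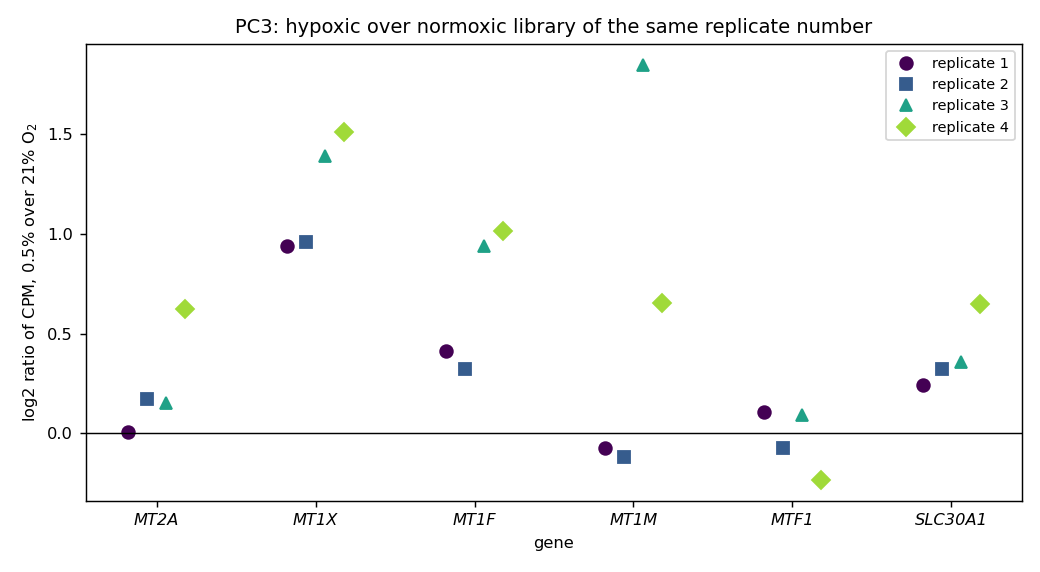
Log2 ratio of hypoxic to normoxic CPM (vertical axis) for each same-numbered pair of PC3 libraries, by gene (horizontal axis). All 4 pairs lie above 0 for MT1X, MT1F and SLC30A1, with MT1X between 0.94 and 1.51, while MT1M and MTF1 have pairs on both sides of 0 and 1 pair of MT2A lies at 0.01.

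In HCT116 all 4 tested metallothionein members rose in hypoxia and the exporter did not pass the test. MT2A rose from 260, 247 and 198 CPM to 371, 300 and 303 CPM, without overlap. The rise was 0.48 on the log2 scale (SE 0.11, edgeR adjusted p = 0.00858). MT1E rose from 212, 176 and 180 CPM to 249, 250 and 224 CPM, also without overlap, with a log2 fold change of 0.37 (SE 0.08, edgeR adjusted p = 0.00844). In 1 fit over both lines, which share an estimate of the spread, the adjusted p was 0.129 for MT2A and 0.0501 for MT1E.

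MT1X rose from 26.6, 25.1 and 22.9 CPM to 41.4, 39.8 and 33.3 CPM in HCT116. The groups did not overlap, and the log2 fold change was 0.64 (SE 0.09, edgeR adjusted p = 0.00069). MT1F rose from 1.70, 1.89 and 1.74 CPM to 2.26, 3.503 and 2.47 CPM without overlap, with replicate 2 highest. Its log2 fold change was 0.64 (SE 0.17, edgeR adjusted p = 0.0189), and without hypoxia replicate 2 it was 0.43 (adjusted p = 0.0681). That library also held 13 of the 17 MT1B counts of hypoxic HCT116 and both MT1M counts.

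SLC30A1 was at 14.5, 14.3 and 14.6 CPM in normoxic and 15.9, 12.96 and 13.3 CPM in hypoxic HCT116, with overlap. Its log2 fold change was -0.03 (95% interval -0.22 to 0.17, edgeR adjusted p = 0.863), and its sign depended on the library left out. MTF1 was at 40.5, 39.1 and 37.2 CPM and then 38.1, 34.9 and 41.1 CPM, with a log2 fold change of -0.02 (95% interval -0.17 to 0.14, edgeR adjusted p = 0.882). The pseudogene MT1DP had a log2 fold change of 0.26 (95% interval -0.43 to 0.94, edgeR adjusted p = 0.581).

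Of the 6 members tested in HCT116, 4 were higher and 0 lower, where 14.6% of all 14120 tested genes were higher and 11.3% lower. MT1A, MT1G and MT1M did not pass the filter on low counts. The median log2 fold change of the 6 was 0.42, beside 0.00 over all genes tested. Under total count scaling all genes split into 1286 higher and 3146 lower in place of 2061 and 1597, and the same 4 members were higher. The summed level of the cluster was 174 ± 46.6 CPM in normoxic and 208 ± 23.97 CPM in hypoxic PC3, and 451 ± 48.8 and 606 ± 52.1 CPM in HCT116. The hypoxic and normoxic sums overlapped in PC3 and not in HCT116.

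**Figure D5:**
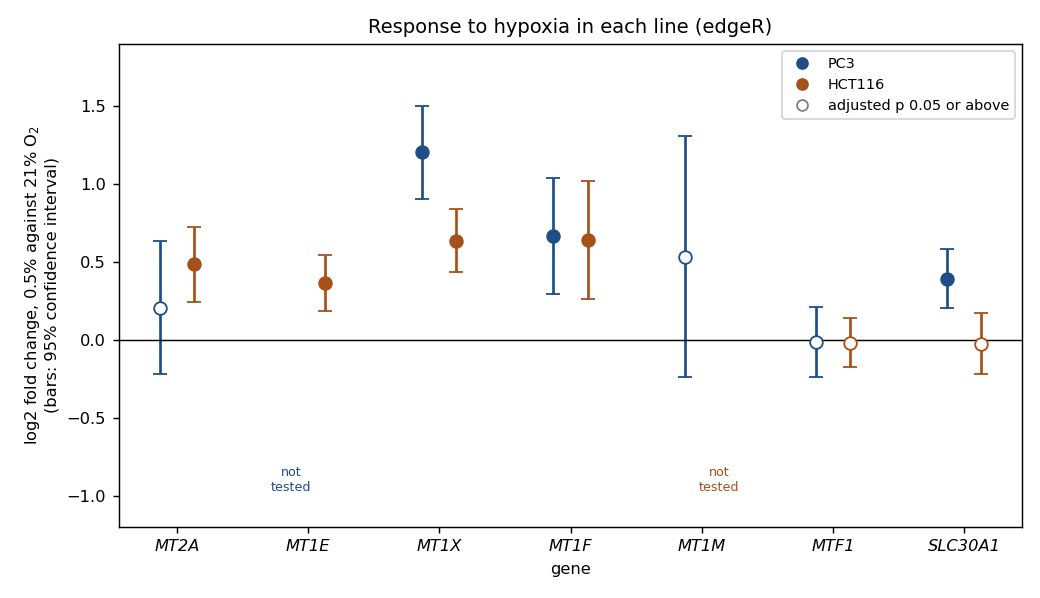
Log2 fold change of hypoxia against normoxia (vertical axis) with its 95% confidence interval for each tested gene (horizontal axis), in PC3 (blue) and HCT116 (orange). Filled points passed an adjusted p of 0.05 in edgeR. MT1X is highest in PC3 at 1.21, MT1F is nearly level between the lines at 0.67 and 0.64, MTF1 lies at 0 in both, and MT2A and SLC30A1 each passed in 1 line.

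Whether the response itself differed between the lines was tested as the interaction of line and O2 over all 14 libraries. It was read for the 5 members that passed the filter on low counts and had counts in every group. None passed in edgeR, where 2.32% of 15493 genes did. At an unadjusted p under 0.05 there were 2, MT1X and SLC30A1, and DESeq2 called the same 2, against 16% and 6.6% of all genes. For MT1X the response in HCT116 was 0.58 lower on the log2 scale than in PC3 (difference -0.58, SE 0.17, edgeR adjusted p = 0.0997), and for SLC30A1 it was 0.43 lower (difference -0.43, SE 0.13, edgeR adjusted p = 0.0977). With the replicate block both passed (edgeR adjusted p = 0.024 and 0.0378), where 8.44% of all genes did, 4.58% higher and 3.85% lower in HCT116. They also passed in DESeq2 (adjusted p = 0.0314 and 0.0305), and in no other of the 21 alternatives, over which the adjusted p reached 0.230 and 0.244. For MT2A, past the threshold in HCT116 and not in PC3, the difference was 0.26 (95% interval -0.27 to 0.80, edgeR adjusted p = 0.681), so its response was not shown to differ. The MT1F difference was -0.04 (95% interval -0.59 to 0.51) and that of MTF1 was -0.02 (95% interval -0.30 to 0.27), with edgeR adjusted p = 0.986 and 0.995. MT1E and MT1M could not be compared in this way, because each had a group at 0, and MT1A and MT1G did not pass the filter.

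Of the 10 further exporters of the SLC30 family and TMEM163, 6 were tested in each line. In PC3 edgeR called 0 of the 6, where 11.3% of all genes were called. At an unadjusted p under 0.05 there were 3 (27.7% of all genes), and DESeq2 called 1 (18.2% of all genes). In HCT116 edgeR called 1, where 25.9% were called, and DESeq2 called 2, where it called 28.8%. The gene called by edgeR was SLC30A7, which moves zinc into the early secretory pathway. It fell from 33.6, 35.8 and 30.99 CPM to 28.4, 28.1 and 28.4 CPM in HCT116, without overlap. The change was -0.23 on the log2 scale (SE 0.07, edgeR adjusted p = 0.0304), and 5 of the 6 fits that left out 1 library lost the call, with adjusted p up to 0.122. In PC3 SLC30A7 was at 58.6, 53.2, 53.7 and 51.9 CPM and then 46.1, 43.2, 46.4 and 47.8 CPM. There the log2 fold change was -0.24 (SE 0.07, edgeR adjusted p = 0.0510), and the replicate block moved the adjusted p to 0.0183.

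Of the 14 importers of the SLC39 family, 10 were tested in each line, with 2 higher in PC3 and none past the threshold in HCT116 by edgeR, DESeq2 or an unadjusted p under 0.05. Over all tested genes 6.03% were higher in PC3 and 25.9% were called in either direction in HCT116, with 28.8% by DESeq2 and 38.7% at the unadjusted p. SLC39A14, a plasma membrane importer of zinc, iron and manganese, rose in PC3 from 140, 147, 143 and 153 CPM to 176, 172, 167 and 205 CPM, without overlap. This was a log2 fold change of 0.31 (SE 0.08, edgeR adjusted p = 0.0321). SLC39A11 rose from 65.3, 44.4, 45.3 and 46.0 CPM to 92.6, 71.6, 66.3 and 71.7 CPM, with normoxia replicate 1 far above the other normoxic libraries. Its log2 fold change was 0.59 (SE 0.16, edgeR adjusted p = 0.0395). Both calls were lost under total count scaling (adjusted p = 0.0731 and 0.0583). SLC39A14 also lost its call in 6 of the 8 fits that left out 1 library and SLC39A11 in 5 of the 8, with adjusted p up to 0.109 and 0.124, both without normoxia replicate 3. In HCT116, SLC39A11 and SLC39A14 were each called lower in 1 of 14 alternative analyses (lowest edgeR adjusted p = 0.036 and 0.0425). The SLC39A14 response differed between the lines (difference -0.45, SE 0.11, edgeR adjusted p = 0.0479), a call lost in 11 of the 14 fits without 1 library (adjusted p up to 0.137, without HCT116 hypoxia replicate 2), under upper-quartile scaling (adjusted p = 0.0612) and without a count filter (adjusted p = 0.0599). For SLC39A11 the difference was -0.74 (SE 0.19, edgeR adjusted p = 0.054). That difference passed with the replicate block (edgeR adjusted p = 0.000462), where 8.44% of all genes did. It also passed in DESeq2 (adjusted p = 0.0086), where 6.6% did.

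Genes other than metallothioneins that are linked to MTF1, namely PGF, GCLC, SLC39A10 and C11orf31, were examined next. In PC3 edgeR called 0 of the 4, where 11.3% of all genes were called. There were 2 at an unadjusted p under 0.05 and 2 called by DESeq2, against 27.7% and 18.2% of all genes. In HCT116 it called 1 of the 4, where 25.9% were. PGF, a growth factor of the VEGF family, had a PC3 log2 fold change of 0.72 (SE 0.24, edgeR adjusted p = 0.0830), and GCLC, the catalytic subunit of the first enzyme of glutathione synthesis, one of 0.21 (SE 0.07, adjusted p = 0.0776). With the replicate block both passed (edgeR adjusted p = 0.0196 and 0.0230), where 28.5% of all genes did. In HCT116 the selenoprotein gene C11orf31 rose from 54.6, 59.1 and 67.9 CPM to 78.2, 75.9 and 69.1 CPM, without overlap. The rise was 0.31 on the log2 scale (SE 0.09, edgeR adjusted p = 0.0253), and 4 of the 6 fits without 1 library lost the call (adjusted p up to 0.0982, without normoxia replicate 1).

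Of 12 genes of copper handling, all tested, 0 were higher and 2 lower in PC3, and 1 was higher and 2 lower in HCT116. Of all genes tested in PC3, 6.03% rose and 5.29% fell. For HCT116 these shares were 14.6% and 11.3%. STEAP2, a metalloreductase that reduces iron and copper before uptake, fell in PC3 from 29.7, 32.5, 31.1 and 31.3 CPM to 18.7, 17.9, 21.4 and 17.4 CPM, with no overlap. The log2 fold change was -0.72 (SE 0.08, edgeR adjusted p = 0.0009). In HCT116 it was at 17.7, 19.1 and 19.1 CPM and then 15.7, 18 and 17.9 CPM (log2 fold change -0.10, edgeR adjusted p = 0.349), and the difference between the lines was 0.61 (SE 0.12, edgeR adjusted p = 0.0124). CCS, the copper chaperone of superoxide dismutase, fell in PC3 from 16.1, 15.8, 16.1 and 16.0 CPM to 13.2, 12.3, 13.1 and 13.2 CPM, without overlap. The change was -0.30 on the log2 scale (SE 0.07, edgeR adjusted p = 0.0198), lost in 4 of the 8 fits without 1 library (adjusted p up to 0.0735, without normoxia replicate 3). With the replicate block, 5 copper handling genes were higher and 2 lower in PC3, where 14.9% of all genes were higher and 13.6% lower.

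In HCT116 the copper transporter ATP7A rose from 11.7, 12.4 and 11.2 CPM to 14.8, 14.7 and 16.1 CPM. The groups did not overlap, and the log2 fold change was 0.38 (SE 0.07, edgeR adjusted p = 0.00352). STEAP3, a ferrireductase, fell by 0.31 on the log2 scale (SE 0.08, edgeR adjusted p = 0.0171). The STEAP3 difference between the lines was -0.49 (SE 0.12, edgeR adjusted p = 0.0505), and it passed with the replicate block (edgeR adjusted p = 0.0034). COMMD1, which takes part in copper export, fell by 0.34 (SE 0.12, edgeR adjusted p = 0.0497) from 14.2, 15.2 and 19.99 CPM to 13.1, 12.3 and 13.1 CPM, with normoxia replicate 3 apart from the other normoxic libraries. Without hypoxia replicate 2 the STEAP3 adjusted p was 0.0578, and COMMD1 was lost in 4 of the 6 fits without 1 library, with a log2 fold change of -0.19 (adjusted p = 0.139) without normoxia replicate 3. In 1 fit over both lines ATP7A, C11orf31 and COMMD1 were no longer called in HCT116 (adjusted p = 0.140, 0.187 and 0.0910).

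Beside these, 8 of 8 established hypoxia-induced genes were higher in both lines, where 6.03% of all genes were higher in PC3 and 14.6% in HCT116. This list too was chosen with earlier results of these data known, so its count is no separate test. NDRG1 rose from 426, 293, 276 and 388 CPM to 1906, 2737, 2077 and 3409 CPM in PC3 (log2 fold change 2.87, SE 0.22, edgeR adjusted p = 0.000134). In HCT116 it rose from 72.2, 76.9 and 82.0 CPM to 406, 648 and 516 CPM (log2 fold change 2.78, SE 0.14, edgeR adjusted p = 1.61e-07). CA9, the carbonic anhydrase of the cell surface, rose by a log2 fold change of 1.66 (SE 0.36, edgeR adjusted p = 0.0192) in PC3 and 6.03 (SE 0.18, edgeR adjusted p = 3.94e-09) in HCT116. The PC3 call of CA9 was lost without hypoxia replicate 2 (adjusted p = 0.0631) and without normoxia replicate 3 (adjusted p = 0.0680). The largest response of a member, MT1X in PC3, at a log2 fold change of 1.21, was below those in PC3 of 7 of 8 well-known hypoxia-induced genes (1.66 to 3.38). The exception was PDK1, a kinase of mitochondrial pyruvate use (log2 fold change 0.72, edgeR adjusted p = 0.004).

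The genes whose levels ran most like MT2A over the 14 libraries, after each line was centred on its own mean, were PPP2CB (Pearson r = 0.95), TMEM64 (0.92), GNAI1 (0.92), GAA (0.91) and CFD (0.91), of 11193 genes compared. These are descriptions over libraries that share conditions and depth. By the same measure the members MT1X reached r = 0.63, MT1F 0.63, SLC30A1 0.46 and MTF1 0.29, below the genes PPP2CB, TMEM64, GNAI1, GAA and CFD. In the order named, ending with CFD, which encodes complement factor D, their hypoxic log2 fold changes in HCT116 were 0.18, 0.30, 0.18, 0.32 and 0.51. In PC3 the changes of PPP2CB, TMEM64, GNAI1, GAA and CFD were 0.13, 0.10, 0.01, 0.09 and 0.22. As these genes were picked for following MT2A, which rose in hypoxic HCT116, their changes there are no separate test.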

How the data were processed

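Polyadenylated RNA was sequenced in paired reads of 75 or 100 bases. Per the labels and the study's methods, the authors aligned reads with HISAT2 (2.05 in the submitters' processing notes) to ERCC sequences and then to GRCh37, counted them on RefSeq genes with HTSeq (0.5.4p3, intersection-strict) and deposited raw counts per gene. The RefSeq release and strand setting are not given in the sources used here. By default HTSeq leaves out reads that align to several places, which touches the metallothioneins. The labels name replicates, and the methods call them biological. Counts of replicates differed beyond counting error (chi-square over genes of 12.5 to 268 per gene), and each library is 1 sample.

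The counts were tested with edgeR 4.0.16 in R 4.3.3 (filterByExpr, TMM, quasi-likelihood test, Benjamini-Hochberg adjustment over all genes, threshold 0.05), in each line alone for hypoxia and over all 14 libraries for the interaction and for the lines. SE is the log2 fold change over the square root of F. Levels are CPM with TMM factors over all libraries. The limit for a count of 0 is 3 counts, and limits of this kind cover counting error only. At 3 counts the libraries reach 0.0199 to 0.0421 CPM. Positions and transcript lengths come from GENCODE v44 lifted to GRCh37, which is not the annotation the authors counted on.

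Same-numbered PC3 libraries deviated together (correlations across genes of 0.675, 0.267, 0.140 and 0.282), so the replicate block is given beside PC3 results that it changes. Simulated data with 200 genes changed by a fold of 2 gave 173 recovered in PC3 (13 false calls), 188 in HCT116 (16) and 143 in the interaction (5). Tried as alternatives were scaling by total count, by upper quartile or by median of ratios, DESeq2 1.42.0, no filter, at least 10 counts in every library, the block, 1 fit over all groups, normoxic libraries alone, a minimum log2 change of 1, and omission of each library. The fits that left out 1 library were made without the block and so do not use the PC3 pairing.

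The 9 genes and all lists were chosen with earlier results of these data known. Named were the 9 genes, metallothionein loci with 10 counts in a library and MTL5, list members past the threshold with a mean of 1 CPM (up to 4 per list and comparison), NDRG1, CA9 and the 5 genes most like MT2A. PGF, GCLC, PDK1, SLC39A7 and the further loci named were added after their values were seen, and SLC30A7 in PC3 is given beside its HCT116 value.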

Additional observations from a re-analysis of the deposited data

Results flagged for a closer look

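In SLC39A11, PC3 normoxia replicate 1 stood at 65.3 CPM while the other 3 normoxic libraries lay between 44.4 and 46.0 CPM, a gap of 0.926 of the group's range. In CCS, PC3 hypoxia replicate 2 stood at 12.3 CPM, below the other 3 hypoxic libraries at 13.1 to 13.2 CPM, a gap of 0.954 of the range. Both exceed Dixon's critical value at the 95% level for 4 samples, which chance passes in about 1 of 20 groups. With 36 groups of 4 examined, 1.8 such values are expected by chance and 2 were found. Groups of 3 were not examined. The response of 2 list genes to hypoxia differed between the lines in edgeR's interaction test. SLC39A14 differed by -0.45 on the log2 scale (HCT116 minus PC3, SE 0.11, adjusted p = 0.0479) and STEAP2 by 0.61 (SE 0.12, adjusted p = 0.0124).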

How the results depend on the processing

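MT1X in both lines and SLC30A1 between the lines passed the threshold under every alternative at that threshold, apart from a required log2 change of 1. Under that rule members called were 1 in PC3 and 0 in HCT116, and all genes 138 higher and 66 lower in PC3 and 219 and 72 in HCT116. In 1 fit over all 4 groups 2 members were higher in HCT116, all genes 938 higher and 795 lower there, and 1246 lower in PC3. Total count scaling shifted the median gene to -0.10 in PC3 and called 562 higher and 1733 lower in PC3 and 1286 and 3146 in HCT116. DESeq2 called 1392 higher and 1209 lower in PC3, and 497 and 466 with 2 members lower in the interaction. At least 10 counts in every library removed MT1E and MT1M, MTF1 lost its call (adjusted p = 0.0702), and 2 members were higher and 1 lower between the lines.

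With the replicate block, PC3 had 2125 genes higher and 1949 lower, and the interaction 710 and 597 with 2 members lower. No other member call changed. The HCT116 numbers correlated at 0.091, 0.138 and 0.043, each best with its own number, and the block gave 2098 higher and 1656 lower there. A block within lines could not be fitted for the line contrast.

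With each library left out, the ranges of genes higher and lower were 364 to 1143 and 189 to 942 in PC3, 1378 to 1853 and 1068 to 1486 in HCT116, 94 to 423 and 78 to 294 in the interaction, and 5778 to 6258 and 6374 to 6666 between the lines. Members higher ranged from 1 to 3 in PC3 (1 without normoxia replicate 2), 3 to 4 in HCT116 and 2 to 4 between the lines (2 without HCT116 normoxia replicate 1). Members lower stayed at 0, 0, 0 and 2. The member counts between the lines include MT1E and MT1M, each with a group at 0.

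Values near 0 changed sign, and the cause was not tested. With each library left out, MTF1 ranged from -0.082 to 0.0761 in PC3, from -0.0679 to 0.040 in HCT116 and from -0.0966 to 0.0449 in the interaction, SLC30A1 from -0.1323 to 0.0288 in HCT116, and MT1F from -0.2582 to 0.0781 in the interaction and from -0.1562 to 0.0356 between the lines. In the interaction MT1F was 0.0076 and MTF1 0.0267 under upper-quartile scaling, and MTF1 was 0.0034 under total count scaling. Between the lines MT1F was 0.0033 under upper-quartile scaling.

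Subtracting 200 bases from the transcript length raised MT2A in normoxic PC3 from 411 to 821 CPM per kb and MTF1 from 4.22 to 4.33. Depth limits MT1G, MT1M, MT1B and MT1DP, with at most 47 counts in a library.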
